A study of Mus musculus with 3 samples.

Results

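Conventional CD4 T cells were 792 of the 31943 cells that passed the quality filters, or 2.48% of them. The cells were chosen by their unique molecular identifier (UMI) counts of 8 genes. A member had at least 2 UMIs of Cd3e and at least 1 of Cd4, none of Cd8a, Cd8b1, Foxp3, Ncr1 and Siglech, and at most 1 of Lyz2. Passing cells had 1000 to 6000 detected genes and under 7.5% mitochondrial UMIs. The members were 353 cells of the first Kaede-green (KG+) library, 271 of the second and 168 of the Kaede-red (KR+) library. They were set against 8917 CD8 T cells (Cd3e of at least 2, Cd8a and Cd8b1 of at least 1, Cd4 and Ncr1 at 0) and 757 Foxp3+ CD4 T cells of the same libraries, the latter taken with the members' rule but with at least 1 UMI of Foxp3.

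CD4 T cells recognize peptides on MHC class II and act mainly by helping other cells. CD40 ligand, encoded by Cd40lg, engages CD40 on dendritic cells and B cells, and secreted cytokines direct macrophages, B cells and CD8 T cells. In tumors the conventional cells sit beside Foxp3+ regulatory T cells, which share the CD4 coreceptor and restrain immune responses.

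The libraries came from tumor-infiltrating lymphocytes of wild-type C57BL/6 mice carrying the photoconvertible protein Kaede, which turns from green to red under violet light. MC38-Ova cells, a murine colon adenocarcinoma line that expresses ovalbumin, were injected subcutaneously at 250000 cells, and the tumors were labeled as isotype control treated. Tumors were photoconverted on day 13 and collected on day 15, so that KR+ cells had been in the tumor for at least 48 h and KG+ cells, which were not converted, stand for later arrivals. The sort kept live CD45+ Ter119- cells with little or no CD11b, and all libraries shared the genotype, the tumor line and the treatment. The labels call the KG+ libraries biological replicates, and the KR+ library has no replicate. How many animals each library pooled was not given in the sources used here, and the methods give the age of the mice only as a range for the whole project. Tests over the 3 libraries therefore measure the spread between these libraries only.

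The filtered cells numbered 10000, 11078 and 10865 in KG+ 1, KG+ 2 and KR+, with median depths of 6628, 8512.5 and 12076 UMIs per cell. Members were shallower, at medians of 5576, 6737 and 5556 UMIs, than CD8 T cells at 8738.5, 10143 and 13681. Foxp3+ cells had medians of 9339.5, 9864 and 7206.5 UMIs. A rule that asks for no UMI of several genes may favor shallower cells, which was not tested. Because depth differed between the classes, levels below are given as CPM, the UMIs of a gene over all UMIs of the summed cells of a library, times 1000000. The libraries shared 20, 28 and 36 cell barcodes in the 3 possible pairs.

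Members made up a smaller share of the sorted KR+ cells than of the sorted KG+ cells of either library. The study describes the sort as a means to balance cell numbers, so shares are those of sorted cells and not of the tumor. Their share of filtered cells was 3.53% in KG+ 1 (exact 95% binomial interval 3.18 to 3.91), 2.45% in KG+ 2 (2.17 to 2.75) and 1.55% in KR+ (1.32 to 1.80). These intervals, like those below, cover counting error only. Both KG+ libraries lay above the KR+ library, and they also differed from each other beyond their intervals. Of cells with at least 2 UMIs of Cd3e, members were 7.27%, 4.48% and 2.62%. Foxp3+ CD4 T cells went the other way, at 1.94%, 2.23% and 2.91% of filtered cells, as did CD8 T cells at 22.1%, 26.8% and 34.4%.

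Of the cells in both CD4 classes, the conventional cells were 64.5% in KG+ 1, 52.3% in KG+ 2 and 34.7% in KR+. With every cell thinned to 3000 UMIs before the rule was applied, the same shares were 75.3%, 72.3% and 52.5%, and the members' share of the filtered cells left was 1.83%, 1.67% and 1.16%. After thinning the KG+ libraries overlapped in their intervals, and the KR+ library stayed below both. No test between colors was possible with 1 KR+ library, and color and library cannot be told apart.

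**Figure D1:**
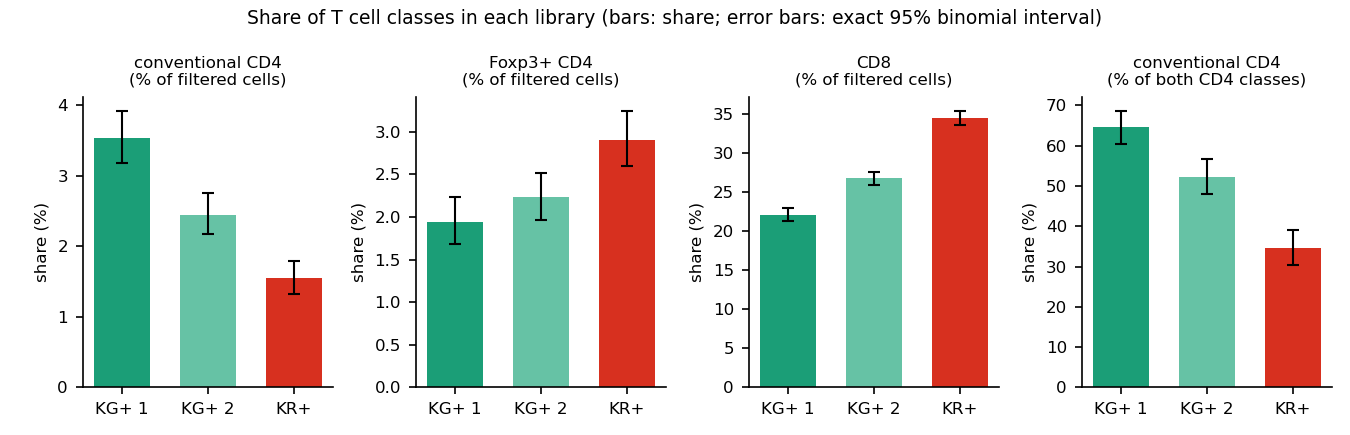
Bars give the share of conventional CD4, Foxp3+ CD4 and CD8 T cells among filtered cells, and of conventional cells within both CD4 classes, in percent, for each library, with exact 95% binomial intervals. The conventional share was 3.53%, 2.45% and 1.55% in KG+ 1, KG+ 2 and KR+, and the other 2 classes were highest in KR+.

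The label was checked against Cd40lg and Tnfsf8, which the rule did not use. Cd40lg (ENSMUSG00000031132, chromosome X, 57212143 to 57224042, plus strand, GRCm38) was at 87.3 CPM in KG+ 1, 97.0 in KG+ 2 and 79.0 in KR+. CD8 T cells held 2.30, 2.92 and 0.744 CPM of it, and Foxp3+ cells 5.46, 5.87 and 7.75. The 3 member values lay close together and above every value of the other classes. The difference from CD8 T cells was 5.47 on the log2 scale (SE 0.26, n = 3 libraries, adjusted p = 7.1e-06, edgeR quasi-likelihood test with Benjamini-Hochberg adjustment). At least 1 UMI of Cd40lg was found in 33.1%, 37.3% and 26.2% of members, against 1.65% of all CD8 T cells and 0.326% of 307 B cells, which give the background level. At 3000 UMIs per cell the shares were 20.7% of members and 0.586% of CD8 T cells. The B cells had median depths of 4013.5, 4840 and 4975 UMIs.

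Tnfsf8, which encodes CD30 ligand, a member of the TNF family, is on chromosome 4 (63831308 to 63861347, minus strand, GRCm38, ENSMUSG00000028362). Its level was 229.5 CPM in KG+ 1, 176.5 in KG+ 2 and 194.9 in KR+ members, against 17.2, 11.2 and 7.55 in CD8 T cells. The difference was 4.02 (log2, SE 0.16, adjusted p = 3.1e-06, edgeR). It was detected in fewer members than Cd40lg, 22.6% of 792, though its CPM was higher, and 1 cell held 108 of its 384 UMIs in KG+ 2. The bases before its start are shown because it separated members from both other classes, with the match to GGAAA, the core bound by NFAT factors that act downstream of the T cell receptor, in capitals. The stretch is chr4:63861348-63861534, minus strand, 187 bases before the GENCODE start, from RefSeq on GRCm38.p6.
Tnfsf8: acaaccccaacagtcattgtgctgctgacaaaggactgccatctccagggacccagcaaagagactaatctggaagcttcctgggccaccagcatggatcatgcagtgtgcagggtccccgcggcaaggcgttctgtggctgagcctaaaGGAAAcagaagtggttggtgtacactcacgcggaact
GGAAA on either strand occurred in 55.6% of all 32851 RefSeq promoter windows of 250 bases before the start, and in 9 of the 11 windows matched among the 16 helper costimulation genes. The AP-1 site TGANTCA, where N is any base, occurred in 6.75% of all windows, in 1 of the same 11 (Tnfsf14), and had no match in Tnfsf8. A match is a run of letters and not a measured site.

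Cells just outside the rule were compared without a test. The 54, 20 and 27 members of KG+ 1, KG+ 2 and KR+ with exactly 2 Cd3e UMIs and 1 Cd4 UMI had 73.8, 68.7 and 106.2 CPM of Cd40lg. Cells with 1 Cd3e UMI that met the rest of the rule (71, 42 and 23 cells) had 75.8, 85.8 and 101.9 CPM. Cells with no Cd4 UMI (1044, 597 and 726) held only 15.1, 19.2 and 16.2 CPM of Cd40lg and 663.3, 392.5 and 873.0 CPM of Trdc, the constant region of the T cell receptor delta chain. Cells with 1 UMI of Cd8a or Cd8b1 (32, 88 and 23) held 60.9, 75.9 and 37.7 CPM of Cd40lg. Missing Cd3e UMIs therefore left out cells with a Cd40lg level close to that of members, and the cells without Cd4 differed from them.

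Marker lists of other cell types were summed in the members. Gamma-delta T cell markers came to 201.1, 60.2 and 92.5 CPM over 10 genes, led by Trdc, and 26, 24 and 13 members held a UMI of Trdc, Tcrg-C1 or Cd163l1. NK cell markers came to 488.2, 536.9 and 277.5 CPM over 11 genes, led by Fcer1g. B cell markers came to 92.5, 99.3 and 70.0 CPM over 10 genes, mostly Ighm. Of the myeloid markers (130.0, 158.1 and 236.2 CPM over 13 genes) Cst3 was the most abundant, and S100a8, S100a9 and Adgre1 were at 0. Dendritic cell markers came to 939.0, 1106.9 and 1271.5 CPM over 14 genes, led by Bst2, which lymphocytes also express under interferon. Mast cell or basophil markers (6.11, 9.65 and 18.0 CPM, led by Kit) and tumor or stromal markers (70.2, 86.0 and 158.0 CPM, led by Lgals7) were low, and all 5 red blood cell markers were at 0. NKT cell markers came to 387.9, 507.5 and 631.2 CPM, led by Plac8. The part of these lists in the results below was not tested except where a value without such cells is given.

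The list that stood out was that of regulatory T cells. Its 19 genes other than Foxp3 summed to 3104, 3601 and 6286 CPM in members and to 10638, 10161 and 12644 CPM in Foxp3+ cells, led in both by Tnfrsf4. Ikzf2, which encodes Helios, was at 243.0, 422.4 and 764.1 CPM in members and at 1389.8, 1270.9 and 1827.9 CPM in Foxp3+ cells. Il2ra, the alpha chain of the IL-2 receptor, was at 69.4, 122 and 216 CPM in members against 608, 562 and 717 CPM in Foxp3+ cells. All 3 members' values were lower than any Foxp3+ value for both genes, and were highest in KR+. Because a cell can express Foxp3 and show no UMI of it, the comparisons with CD8 T cells and between colors were also run on members with no UMI of Ikzf2 or Il2ra, of which there were 202, 125 and 70.

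**Figure D2:**
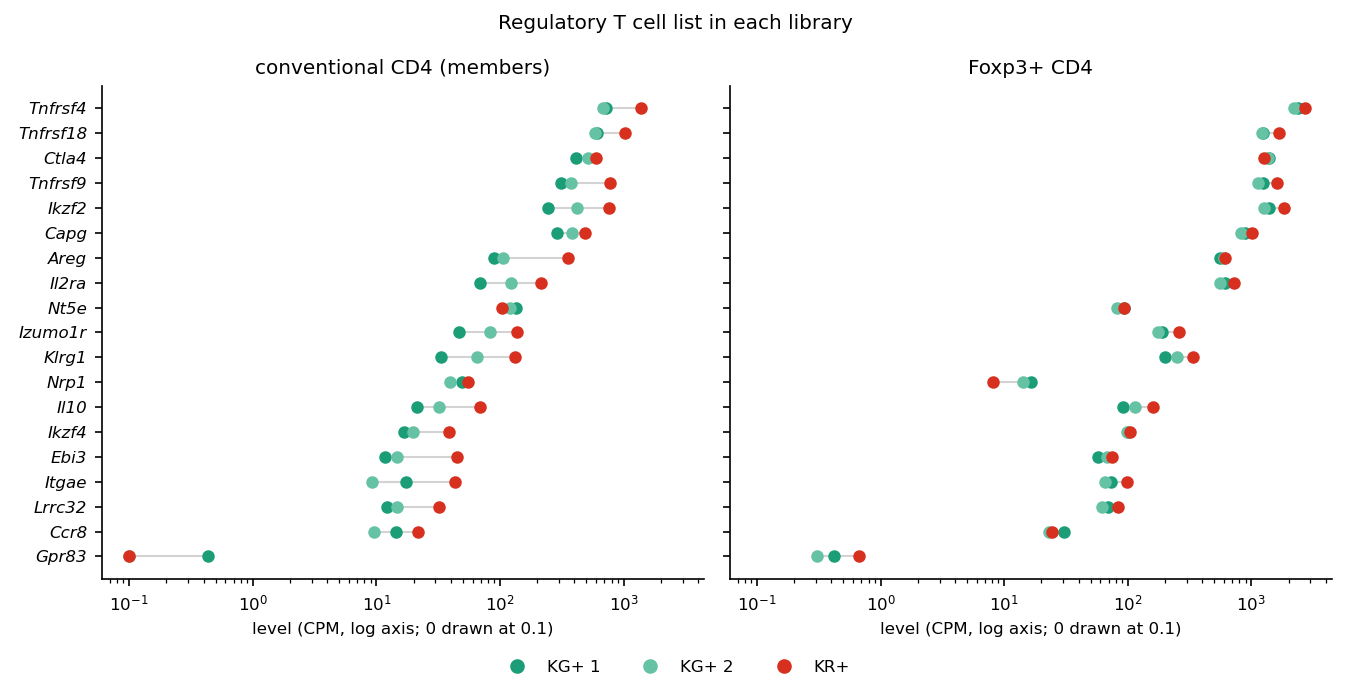
Each point is the level of 1 gene of the regulatory T cell list in 1 library, in CPM on a log axis, for members (left) and Foxp3+ CD4 T cells (right). In members, Ikzf2 ran from 243.0 CPM in KG+ 1 to 764.1 in KR+, and in Foxp3+ cells from 1270.9 to 1827.9.

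Against CD8 T cells of the same libraries, members expressed more of the helper costimulation genes, Th17 genes and interferon-stimulated genes, and less of the cytotoxic granule and cell cycle genes. Of 11690 genes tested on UMIs summed per library and class, 1469 (12.6%) were higher in members and 1504 (12.9%) lower at an adjusted p under 0.05 (edgeR quasi-likelihood test, library as block). Without the scaling factors of edgeR the same test called 1867 higher and 1112 lower, and without the filter on low counts 1379 higher and 2100 lower. Among members without Ikzf2 and Il2ra UMIs it called 1137 higher and 1414 lower, and the fewest calls were 817 and 850 without the library block and 855 and 818 without KG+ 1. Leaving out KG+ 2 gave 927 and 1061. The median log2 difference over all genes tested was -0.02.

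All 16 helper costimulation genes were tested, and 10 were higher in members and 1 lower, with a median log2 difference of 0.91. Of receptors, Tnfrsf4 (OX40) was at 721, 687 and 1392 CPM in members and at 199.7, 196 and 295 CPM in CD8 T cells, a difference of 1.87 (log2, SE 0.09, adjusted p = 7.1e-06, edgeR). Icos, a costimulatory receptor of helper cells, was at 838, 729 and 1117 CPM against 246, 258 and 275. Cd28, the receptor for B7 ligands, was at 376, 365 and 383 CPM against 175, 163 and 144. Each of these was higher in every library. Of ligands beside Cd40lg and Tnfsf8, Tnfsf11 (RANKL) was at 111, 91.0 and 256 CPM against 46.4, 34.8 and 79.3, a difference of 1.35 (SE 0.10, adjusted p = 6.1e-05, edgeR). Cd5 and Cd6, scavenger-type receptors that tune T cell signaling, were higher by 1.49 and 0.59, Ctla4 by 1.04 and Tnfrsf18 (GITR) by 0.77. Members with Ikzf2 or Il2ra UMIs held 76.5% of the Ctla4 and 70.8% of the Tnfrsf18 UMIs, but 55.2% of all member UMIs. In the other members Ctla4 was at 307, 196 and 244 CPM, against a mean of 508 in all members. Tnfrsf18 was there at 438, 381 and 604 CPM, and Tnfrsf4 at 407, 322 and 696. Tnfsf10, which encodes TRAIL, was the 1 lower member, at 24.9, 24.4 and 35.9 CPM against 37.1, 37.2 and 49.2 (log2 -0.65, adjusted p = 0.0044, edgeR). Tnfrsf9 (4-1BB) and Cd27 did not pass, at log2 differences of -0.30 and 0.01, nor did Cd200, Tnfsf4 and Tnfsf14.

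Of the 20 helper cytokine genes 13 passed the filter on low counts, and 8 were higher and 3 lower. Il17a was at 38.8, 33.6 and 37.7 CPM in members against 1.60, 0.447 and 2.59 in CD8 T cells, a difference of 4.65 (log2, SE 0.39, adjusted p = 9.2e-05, edgeR). These levels rested on few cells, since only 24 members held Il17a and 1 cell held 31 of 89, 46 of 73 and 21 of 42 UMIs in KG+ 1, KG+ 2 and KR+. With the highest cell left out of each sum the Il17a difference was 4.28. Il2, the T cell growth factor, was at 9.60, 50.6 and 71.8 CPM against 2.42, 3.86 and 2.42, but in KR+ 70 of its 80 UMIs were in 1 cell. Without the highest cell in each sum the Il2 difference was 1.93 in place of 3.63 and still passed. Il10, which dampens immune responses, was at 21.4, 32.2 and 69.1 CPM against 1.31, 2.86 and 1.62, a difference of 4.23, and 91.3% of its member UMIs were in cells with Ikzf2 or Il2ra. Among members without those UMIs the Il10 difference was 1.68 and still passed.

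Ifng, the main Th1 cytokine, was lower in members at 125, 70.3 and 119 CPM than in CD8 T cells at 225, 272 and 216 (log2 -1.31, SE 0.19, adjusted p = 0.0013, edgeR). Csf1, a macrophage growth factor, was lower by 2.03 on the log2 scale and Tgfb1 by 0.60. Tnf was higher by 0.75 and Ltb, lymphotoxin beta, by 0.37. Lta and Csf2 did not pass, and 107 UMIs of Csf2 in KG+ 1 came from 3 cells. Il21 and Il17f had the largest differences of the list, 6.23 and 5.96, but Il21 had only 9, 5 and 8 UMIs in members and 1 cell held 28 of 56 Il17f UMIs in KG+ 1. Il4, Il5, Il13, Il22, Il3, Il6 and Il9 were left out by the filter. Il4 had 7 UMIs in 5 members and Il13 4 UMIs in 4, and Il5, Il3 and Il9 had none.

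**Figure D3:**
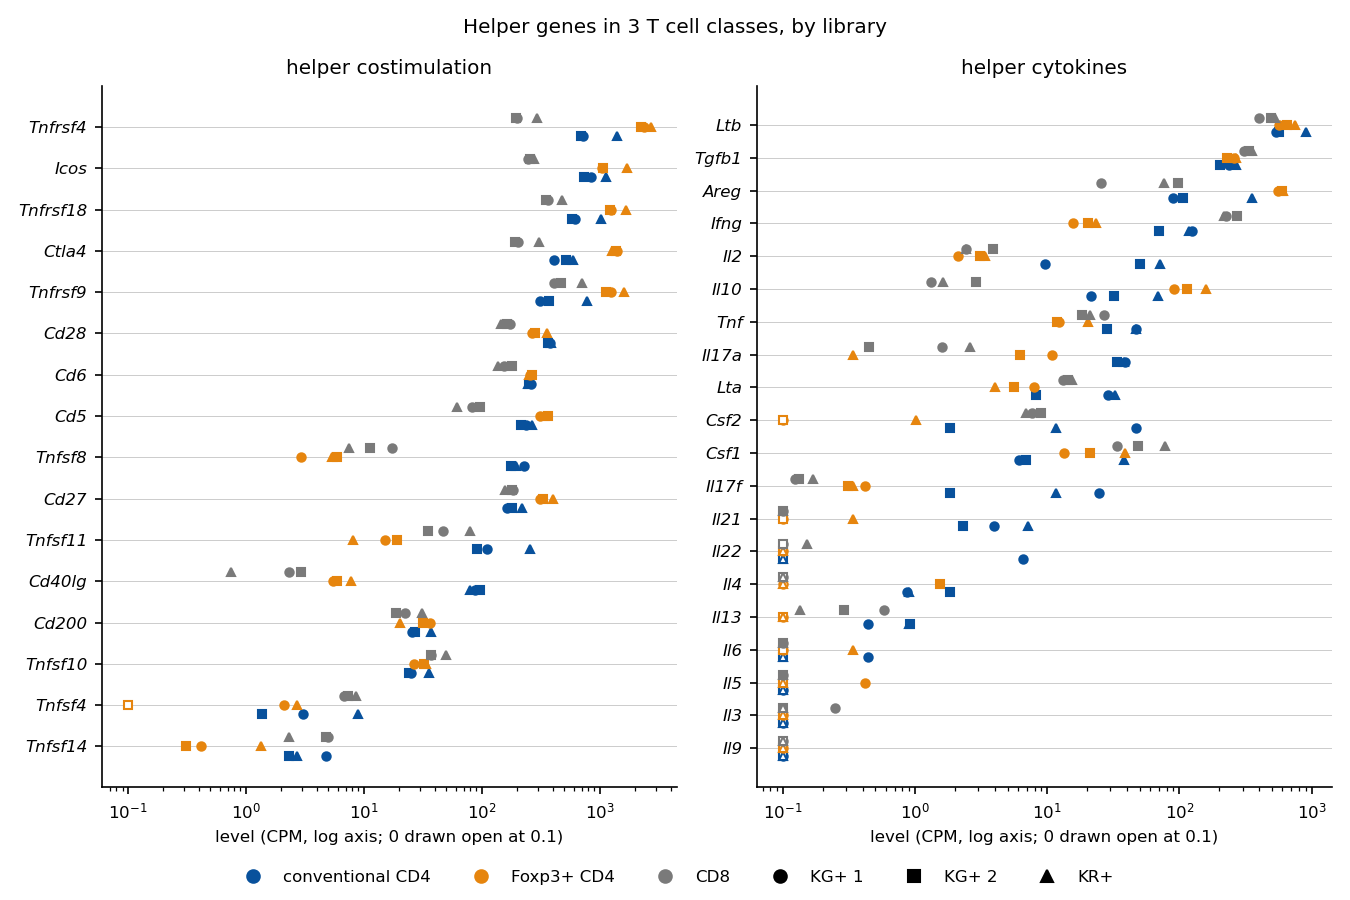
Levels in CPM on a log axis of 16 helper costimulation genes (left) and 20 helper cytokine genes (right) in conventional CD4, Foxp3+ CD4 and CD8 T cells, with 1 symbol for each library and open symbols for 0. Cd40lg in members sits between 79.0 and 97.0 CPM, and every value of the other classes is at or below 7.75 CPM.

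Among lineage factors, 4 of the 8 CD4 lineage genes were higher in members and none lower, with a median of 0.41. Zbtb7b, which encodes ThPOK, the factor that commits thymocytes to the CD4 lineage, was at 16.6, 14.2 and 31.4 CPM against 4.602, 5.99 and 5.96 in CD8 T cells (log2 1.73, SE 0.25, adjusted p = 0.0014, edgeR). Tcf7, Lef1 and Gata3 were higher by 1.23, 0.83 and 0.59, and Satb1, Ikzf1, Tox and Myb did not pass. Of the 8 factors of the CD8 and cytotoxic program, Eomes, Runx3, Tbx21 and Id2 were lower and Runx1 and Prdm1 higher, with a median of -0.77.

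Helper subset lists differed in how many of their genes were called. All 10 tested Th17 genes were higher in members, with a median of 2.72, of the 13 listed. They included Ccr6, a chemokine receptor (10.0, 8.27 and 6.29 CPM against 1.52, 1.13 and 0.829). Maf, a factor that controls Il10 and Il21, was much more abundant at 523, 620.1 and 769.5 CPM against 44.1, 34.8 and 25.9 (log2 4.11, SE 0.21, adjusted p = 8.6e-06, edgeR). Of the 24 members with Il17a, 22 also held a Trac UMI and 8 a Trdc UMI, and cells with a gamma-delta marker UMI held 24.5% of all Il17a UMIs and 56.2% of those of Il17f. Without those cells Il17a was at 29.8, 32.4 and 30.2 CPM in members.

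Of 14 Th1 genes 5 were higher and 3 lower, with a median of -0.01. Cxcr3, the receptor for interferon-induced chemokines, was at 151, 150.3 and 126 CPM against 53.9, 46.9 and 17.6 (log2 1.85, SE 0.21, adjusted p = 0.0004, edgeR). Tbx21, which encodes T-bet, was lower by 0.93, as was Ccl5 by 0.93. Of 7 tested Th2 genes Ccr4, Il1rl1, Areg and Gata3 were higher, but Areg went from 1.29 to -1.16 among members without Ikzf2 and Il2ra UMIs. Ccr4 was at 24.9, 21.6 and 5.39 CPM against 1.19, 0.920 and 0.372. Of 14 tested Tfh genes 9 were higher and 1, Pdcd1, was lower, with a median of 1.26. They included Slamf6 at 102, 75.8 and 52.1 CPM against 32.1, 23.1 and 9.34, and Bcl6, the defining factor of follicular helper cells, higher by 0.99. Cxcr5 did not pass, at 2.18, 1.84 and 0.898 CPM in members.

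Interferon-stimulated genes were higher almost as a whole, 24 of 25 tested, with a median of 0.92. Against Foxp3+ CD4 T cells 12 of the 25 were higher in members and 2 lower, with a median of 0.28. The list's summed level was 14191, 14800 and 17046 CPM in members. In Foxp3+ cells it was higher in every library, at 15817, 18456 and 19569 CPM, led in both classes by Ifi27l2a. Ifit1 was at 692, 411 and 346 CPM in members against 264, 175.5 and 114 (log2 1.30, SE 0.09, adjusted p = 3.1e-05, edgeR). Oasl2, an antiviral gene, was higher by 1.87 and Slfn5 by 1.68, and Usp18 did not pass at 0.15. Of 22 T cell receptor signal and immediate early genes 13 were higher and 1, Nr4a2, lower, with a median of 0.54. Egr1 was at 187, 77.2 and 223 CPM against 48.5, 44.0 and 41.6, though 1 KR+ member held 101 of its 248 KR+ UMIs. Cd69 was at 615, 376 and 468 CPM against 259.9, 197 and 140.4. The dissociation and heat shock list moved in part with them, with 4 of 12 genes higher (Hspa1b, Hspa1a, Fos and Dnajb1) and 3 lower, and its part in the result was not tested.

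Genes tied to leaving or staying in tissue were mostly higher in members, 11 of 18 with 3 lower and a median of 0.86. The list holds genes of both kinds, so these counts give no direction of movement. Its most abundant gene in both classes, Rgs1, was higher in members, at a mean of 1218 CPM against 424. Of the genes whose proteins the paper ties to tissue residency, Cd69 was higher and Itga1 (CD49a) lower. S1pr1, the receptor that guides exit into lymph, was at 327, 274 and 79.9 CPM against 83.3, 64.8 and 11.8 (log2 2.12, SE 0.14, adjusted p = 2.5e-05, edgeR), and Klf2, the factor that induces it, was higher by 1.28. Of the 14 naive and central memory genes 6 were higher and 2 lower, with a median of 0.45. Il7r did not pass, and Dapl1 and Ccr7 were lower. Of 14 chemokine receptor genes 7 were higher, among them Ccr2 by 2.03 and Cxcr4 by 1.32, and Cx3cr1 and Ccr7 were lower. Of 20 cytokine receptor genes 6 were higher and 3 lower, with a median of 0.26.

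Cytotoxic granule genes were lower in 15 of 18 cases and higher in 1, Srgn, with a median of -1.47. Gzmf was at 3.05, 18.8 and 83.5 CPM in members against 585, 609 and 3879 in CD8 T cells (log2 -5.80, SE 0.27, adjusted p = 6.7e-06, edgeR). Prf1, perforin, was at 36.2, 40.0 and 65.5 CPM against 236, 326 and 686. Gzmb was still abundant in members, at 747, 1134 and 1705 CPM against 1779, 1890.4 and 3532, and Nkg7 was lower by 1.87. Of 8 tested chemokine genes 4 were lower (Ccl1, Ccl3, Xcl1 and Ccl5) and Cxcl10 was higher by 0.83.

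Cell cycle genes were lower in 21 of 28 cases and none was higher, with a median of -1.06. Members with a UMI of Mki67 or Top2a were 16.7%, 26.9% and 20.8% against 24.5%, 40.2% and 48.0% of the deeper CD8 T cells. With each cell thinned to 3000 UMIs, which left 341, 266 and 160 members and 2186, 2960 and 3728 CD8 T cells, the shares were 9.09%, 15.8% and 15.6% against 11.8%, 18.9% and 25.4%, and their exact 95% intervals overlapped in both KG+ libraries and not in KR+. Of 21 tested hypoxia and glycolysis genes 12 were lower and 2 higher, with a median of -0.44. Pgk1, a glycolytic enzyme, was at 258, 355 and 347 CPM against 432, 426 and 759, and Hif1a, the oxygen-regulated factor, was higher by 0.84. Of 14 inhibitory receptor genes 6 were lower, among them Havcr2 (TIM-3) by 2.13 and Lag3 by 1.77, and 5 were higher, among them Ctla4. Of 12 exhaustion factor genes 6 were higher, Ikzf2 among them, and 3 lower. Of the regulatory T cell list 11 of 18 tested genes were higher than in CD8 T cells and 2 lower, with a median of 0.89. Of 8 gamma-delta markers 5 were higher and 2 lower, and their part in the Th17 result was not tested beyond the values without such cells. Blk and Cd163l1, among the 5, were at -0.06 and -0.90 among members without Ikzf2 and Il2ra UMIs.

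Among called genes at 20 CPM or more on average in the higher class, the 12 with the largest differences upward were Cd40lg, Trat1, Il17a, Il10, Maf, Izumo1r, Tnfsf8, Ecm1, Ebi3, Il2, Serpinb1a and Tnfrsf25. Trat1, an adaptor of the T cell receptor complex, was at 70.7, 43.7 and 67.3 CPM in members against 3.21, 2.65 and 0.863 (log2 4.73, SE 0.35, adjusted p = 4.6e-05, edgeR). Izumo1r, which encodes the folate receptor FR4, was at 46.7, 83.7 and 136.5 CPM against 6.25, 5.02 and 3.52. Ebi3, a subunit of IL-35 and IL-27, no longer passed among members without Ikzf2 and Il2ra UMIs, at 1.61 in place of 3.82. Downward the 12 were Gzmf, Nrgn, Gzme, Crtam, Ifitm1, Gzmd, Bend4, Serpine2, Prf1, Sema6d, Wdr95 and Adssl1. Crtam, a receptor of activated CD8 and NK cells, was at 0.436, 2.30 and 0.898 CPM against 23.5, 26.9 and 14.7.

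**Figure D4:**
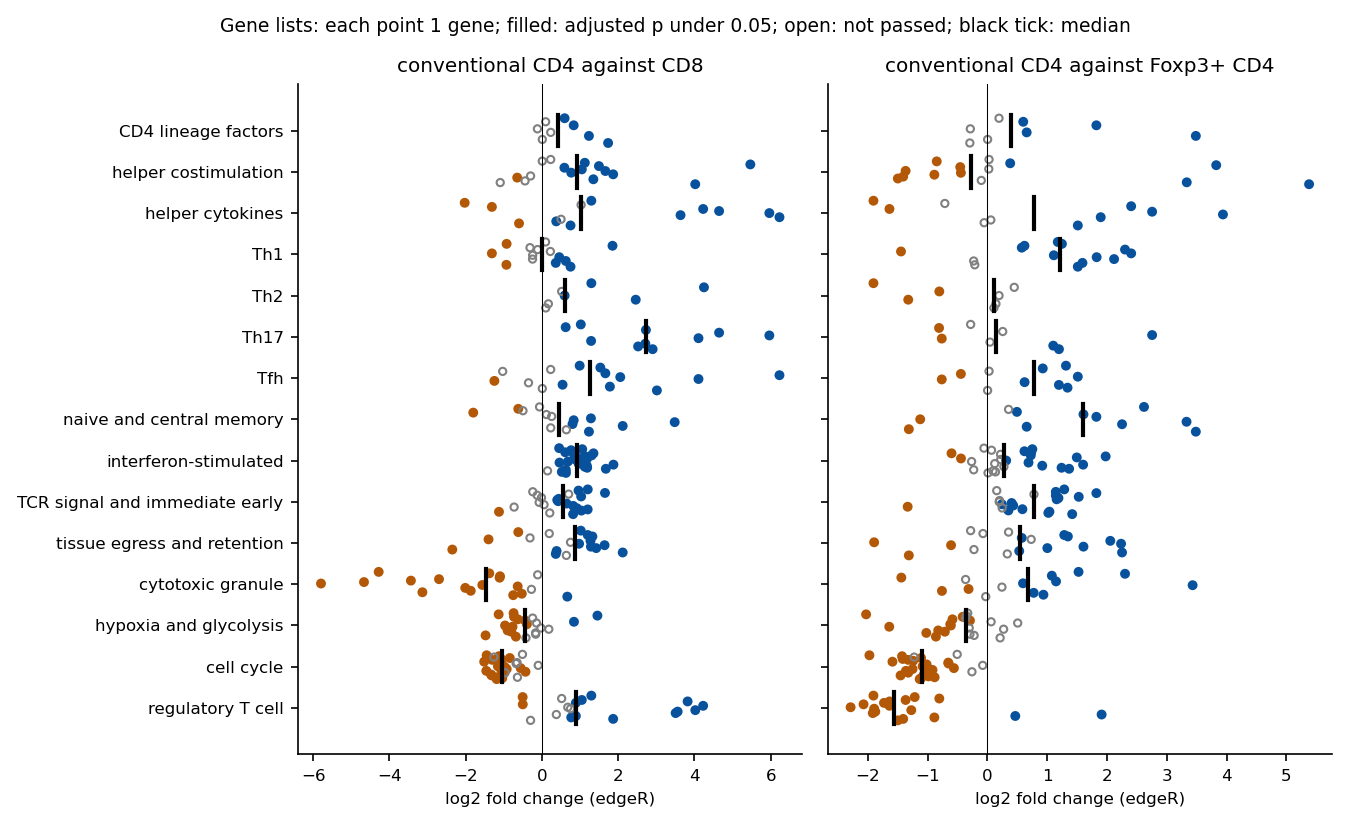
Log2 fold change of each tested gene in 15 lists, members against CD8 T cells (left) and against Foxp3+ CD4 T cells (right), with filled points for an adjusted p under 0.05 (edgeR) and a black tick at each list's median. Cytotoxic granule genes had a median of -1.47 against CD8 T cells and 0.69 against Foxp3+ cells, although their summed level was lower in members than in Foxp3+ cells in all 3 libraries.

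Against Foxp3+ CD4 T cells, members had more of the Th1 and the naive and central memory genes, and less of the regulatory T cell and cell cycle genes. Of 9065 genes tested, 1187 (13.1%) were higher in members and 1183 (13.1%) lower (edgeR quasi-likelihood test, library as block). With at least 2 Foxp3 UMIs asked of the Foxp3+ class and no Ikzf2 or Il2ra UMI of members, the counts were 1127 and 1126. They were 558 and 502 with DESeq2, 573 and 525 without KG+ 2, 652 and 541 without KG+ 1 and 649 and 569 with cells thinned to 3000 UMIs. The member sums are the same as in the comparison with CD8 T cells, so the comparisons are not independent of each other. The median log2 difference over all genes was 0.00.

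The 3 TNF-family ligands among the largest differences were Tnfsf8, Cd40lg and Tnfsf11. Tnfsf8 was at 2.94, 5.87 and 5.39 CPM in Foxp3+ cells against the 176.5 to 229.5 CPM of members, a difference of 5.38 (log2, SE 0.20, adjusted p = 1.7e-10, edgeR). Cd40lg differed by 3.83 (SE 0.20, adjusted p = 7.6e-09, edgeR) and Tnfsf11 by 3.34. Of 14 tested helper costimulation genes 4 were higher, with Cd28 beside these, and 7 were lower, namely Tnfrsf9, Tnfrsf4, Ctla4, Tnfrsf18, Cd27, Cd5 and Icos, with a median of -0.27. The ligand Tnfsf10 did not pass.

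Of 10 tested helper cytokine genes Il2, Il17a, Ifng, Lta and Tnf were higher and Areg and Il10 lower. Ifng was at 15.5, 20.4 and 23.3 CPM in Foxp3+ cells and at 125, 70.3 and 119 CPM in members (log2 2.41, SE 0.19, adjusted p = 3.3e-07, edgeR). Il2 differed by 3.94, and by 2.22 with the highest cell left out of each sum. Of 14 Th1 genes 11 were higher in members and 1, Hopx, lower, with a median of 1.21. Fasl, the death receptor ligand, was at 109.95, 121 and 121 CPM against 18.9, 22.9 and 33.4, and Il18rap, an IL-18 receptor chain, was higher by 2.12. Gzmk was at 74.2, 46.0 and 38.6 CPM against 1.68, 9.57 and 2.70 (log2 3.43, adjusted p = 2.7e-06, edgeR), and 8 of 14 tested cytotoxic granule genes were higher and 3 (Gzmb, Prf1 and Nkg7) lower. The summed level of the granule list went the other way in every library, at 5064, 5612 and 7132 CPM in members against 6869, 6972 and 9590 in Foxp3+ cells, where Gzmb was the most abundant. Markers of other cells moved with these genes. Of 6 tested gamma-delta markers 5 were higher and none lower (Trgv2, Tcrg-C1, Tcrg-C2, Trdc and Tcrg-C4), with Trdc the most abundant and summed levels of 201, 60.2 and 92.5 CPM in members against 97.4, 20.7 and 44.1 in Foxp3+ cells. Of 11 tested NK cell markers 5 were higher and none lower (Klrk1, Cd7, Eomes, Klre1 and Klra7), with summed levels of 488, 537 and 277 CPM against 314, 247 and 225 and Fcer1g, an Fc receptor chain that did not pass, the most abundant. Of 5 tested NKT cell markers 3 were higher and none lower (Klra1, Slamf1 and Plac8), and Plac8 was the most abundant, with summed levels of 388, 507 and 631 CPM against 313, 267 and 252. Without cells bearing UMIs of other cell types Ifng differed by 2.22, Fasl by 2.31 and Gzmk by 3.29.

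The Th17 list, higher throughout against CD8 T cells, was mixed here. Of 8 tested genes Il17a, Tmem176a and Tmem176b were higher and Maf and Batf lower, with a median of 0.15. Maf was at 523, 620.1 and 769.5 CPM in members against 953, 990.2 and 1433 in Foxp3+ cells (log2 -0.76, SE 0.09, adjusted p = 9.9e-06, edgeR). Maf was the most abundant gene of the list in both classes, and the list's summed level was lower in members in every library, at 1128, 1115 and 1360 CPM against 1575, 1560 and 1942.

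Of 11 tested naive and central memory genes 8 were higher and 2, Ly6c1 among them, lower, with a median of 1.61. Tcf7, which encodes TCF-1, was at 145, 123 and 62.0 CPM in members against 4.62, 14.8 and 9.44 in Foxp3+ cells (log2 3.49, SE 0.26, adjusted p = 2.3e-07, edgeR). S1pr1 was higher by 2.25, Lef1 by 1.82 and Bach2, a repressor that keeps T cells quiescent, by 2.62. Of 21 T cell receptor signal and immediate early genes 15 were higher and 1, Myc, lower, with a median of 0.78, and of the 11 dissociation and heat shock genes tested 5 were higher and none lower. Hspa1b, a heat shock gene, was at 102, 133 and 118.5 CPM against 6.29, 9.88 and 23.3, but 1 KR+ member held 70 of its 132 KR+ UMIs, and the part of that list in the result was not tested.

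Of 18 tested genes of the regulatory list 16 were lower in members, with a median of -1.57, while Nrp1, a marker of thymic regulatory cells, was higher by 1.91 and Nt5e, which encodes CD73, by 0.47. Foxp3 itself chose the classes, so this list describes the rule's outcome in part. Cd81, a tetraspanin, was at 16.1, 11.5 and 47.6 CPM against 139.7, 106 and 126 (log2 -2.46, SE 0.25, adjusted p = 3e-06, edgeR). The metallothioneins Mt1 and Mt2, which bind metal ions, were lower by 2.27 and 2.18, and Mt1 was at 31.9 and 68.0 CPM in the KG+ and 297 CPM in the KR+ members. Il1rn, the IL-1 receptor antagonist, had the largest difference downward among genes at 20 CPM or more in the higher class, at 0.873, 2.76 and 2.69 CPM against 23.5, 17.9 and 20.9. Cell cycle genes were lower in 24 of 28 cases and higher in none, with a median of -1.09. After thinning to 3000 UMIs the shares of cells with a UMI of Mki67 or Top2a were 9.09%, 15.8% and 15.6% of members and 23.4%, 25.1% and 15.9% of 192, 247 and 314 Foxp3+ cells, and the exact 95% intervals overlapped in KG+ 2 and KR+ and not in KG+ 1. Hypoxia and glycolysis genes were lower in 11 of 21 cases and higher in none.

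Members differed among themselves in Cd40lg and in Ikzf2 or Il2ra. Of the 262 members with Cd40lg, 30.9% held Ikzf2 and 17.2% Il2ra, against 47.5% and 29.4% of the 530 without it. By library, the Ikzf2 shares were 29.1% and 37.7% in KG+ 1, 39.6% and 50.6% in KG+ 2 and 15.9% and 62.1% in KR+. Those of Il2ra were nearly equal in KG+ 1 (17.9% and 18.6%) and lay further apart in KG+ 2 (14.9% and 28.8%) and KR+ (20.5% and 50.8%). Of Tnfsf8-positive members more held Ikzf2 than of the rest in KG+ 1 (38.8% and 33.6%) and KG+ 2 (58.6% and 43.2%), and fewer in KR+ (27.8% and 56.1%). Ifng was found in 34.4% of Cd40lg-positive and 22.1% of Cd40lg-negative members, and Cxcr6, a receptor of tumor-resident T cells, in 54.6% and 44.0%. Izumo1r went the other way, at 16.8% and 28.3%. The shares of Ifng, Cxcr6 and Izumo1r by Cd40lg pool the libraries. The differences by Cd40lg in these genes, Ikzf2 and Il2ra had the same direction in all 3. Other genes compared in this way did not. Tnfsf8 was found in fewer Cd40lg-positive than Cd40lg-negative members in KG+ 1 (20.5% and 25.8%). It was found in more of them in KG+ 2 and in KR+ (40.9% and 14.5% in KR+). Ccr7, Ctla4 and Trdc also changed direction between libraries. The shares are not corrected for depth and are given as a description.

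Cells with Ikzf2 or Il2ra held 55.2% of all member UMIs, and larger shares of several transcripts. They held 92.2% of Areg UMIs, 91.3% of Il10, 83.4% of Tnfrsf9 and 76.5% of Ctla4, but 40.5% of Cd40lg and 42.3% of Cxcr3. Areg, the growth factor amphiregulin, was at 144.7, 173.7 and 552.7 CPM in members with Ikzf2 or Il2ra and at 38.6, 7.90 and 28.4 CPM in the others. Cd40lg was at 66.4, 81.4 and 34.7 CPM in the former and 106.4, 119.6 and 151.5 CPM in the latter. In every library Areg was higher and Cd40lg lower in the members with Ikzf2 or Il2ra. The difference was not tested, and how many of all genes part these groups in the same way was not counted. Cells with none of Cd40lg, Ikzf2, Il2ra and the gamma-delta UMIs were 127, 62 and 36 of the members.

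Between colors no test was possible, since the KR+ cells came from 1 library. A gene was called when KR+ differed at least 2-fold from both KG+ libraries in 1 direction, by more than the KG+ libraries differed from each other. Of 5684 genes at 20 CPM or more in at least 1 library, 87 (1.53%) were higher and 42 (0.739%) lower in KR+ members. In CD8 T cells the same rule gave 28 of 5295 genes higher (0.529%) and 55 lower (1.04%). With edgeR's scaling factors the rule gave 70 higher and 59 lower in members. With cells thinned to 3000 UMIs it gave 144 and 122, which held 59 of the 87 and 30 of the 42. Against KG+ 2 alone it gave 165 and 88, and against KG+ 1 alone 193 and 98. The libraries are the same in both classes, so the values are set side by side only.

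Cd40lg, at 79.0 CPM in KR+ and 87.3 and 97.0 in KG+, and Tnfsf8, at 194.9 CPM against 229.5 and 176.5, were not called, and for Tnfsf8 the KR+ level lay between the KG+ levels. Helper costimulation genes called higher in KR+ were Tnfrsf9 (771 CPM against 312 and 373) and Tnfsf11 (256 CPM against 111 and 91.0), of 14 measured. Helper cytokine genes called higher were Il10, Csf1 and Areg, of 12. Areg was at 354 CPM in KR+ against 89.4 and 106 in KG+, and in CD8 T cells at 76.1 against 25.7 and 97.5. No gene of the Th1 list (14 measured), the Th17 list (8) or the interferon-stimulated list (25) was called either way in members.

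Of the 18 measured genes of the regulatory list 7 were higher in KR+ members, namely Il10, Tnfrsf9, Areg, Klrg1, Lrrc32, Itgae and Ebi3, with a median log2 ratio of 1.15 against 0.04 over all genes. In CD8 T cells 0 of 11 measured genes of that list were called. Among members with no UMI of Ikzf2 or Il2ra, 2 of the 16 other genes, Tnfrsf9 and Ebi3, were still called higher, both of them among the 7. The floor of 20 CPM was not applied again to these 16 genes. Ebi3 lay below it in every library, at 0 and 2.26 CPM in KG+ and 18.9 in KR+ (0, 2 and 8 UMIs). Il10 was then at 10.1 and 4.51 CPM in KG+ and 2.37 in KR+, and Areg at 38.6 and 7.90 CPM against 28.4. Over all genes that restriction gave 140 higher and 138 lower, of which 25 and 24 were among those called in all members.

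Genes called lower in KR+ members included S1pr1, at 79.9 CPM against 327 and 274, and in CD8 T cells it was also called lower, at 11.8 CPM against 83.3 and 64.8. Dapl1, a gene of naive T cells, was at 0.898 CPM against 21.4 and 28.0 and Nsg2 at 8.98 against 27.5 and 20.2. Those 3 were the genes called lower among 11 of the naive and central memory list, and S1pr1, Dapl1 and Nsg2 were also called lower among members without Ikzf2 and Il2ra UMIs. In CD8 T cells 4 of 10 were lower, among them S1pr1, Klf2 and Tcf7. Tcf7 in members was at 62.0 CPM in KR+ against 145 and 123, and Klf2 at 286 against 524 and 388, neither of them called. Gzma, a granule protease, was at 97.9 CPM against 359.5 and 478 and was also lower in CD8 T cells. It was the only 1 of 16 cytotoxic granule genes measured that was called lower, and Gzmc, Gzmd and Gzmg were called higher. In CD8 T cells 6 of 17 were called higher, namely Prf1, Gzmc, Gzmd, Gzme, Gzmf and Gzmg, and Gzma alone lower. Of 7 NK cell markers measured 4 were lower in KR+ (Klre1, Klra4, Klra7 and Cd7), and the part of NK-like cells was not tested.

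The 12 genes with the largest ratios upward were Ccl22, Gzmg, Spp1, Ccl9, Igfbp7, Tff1, Ccn4, Gzmd, Ifitm1, Csf1, Il1b and Mt2. In 5 of them 1 KR+ cell held most UMIs, 25 of 25 for Ccl22, 24 of 29 for Gzmg, 43 of 50 for Ccl9, 42 of 43 for Il1b and 142 of 282 for Ifitm1. Spp1, osteopontin, had 78 of its 169 UMIs in 1 KR+ cell. Csf1 was at 37.7 CPM in KR+ against 6.11 and 6.89, and Mt2 at 44.0 against 4.80 and 9.19, with no more than 18.4% of the KR+ UMIs in 1 cell. With the highest cell of each gene left out of each sum, 71 genes were higher and 56 lower. Downward, beside Dapl1, S1pr1, Gzma, Klra4 and Klra7, the 12 were Pde2a, Rflnb, Actn1, Zdhhc23, Ccr4, Parp8 and Klrb1b. Ccr4, a chemokine receptor of Th2 and regulatory cells, was at 5.39 CPM in KR+ against 24.9 and 21.6.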

How the data were processed

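The authors deposited raw UMI counts per gene and cell barcode from Chromium Single Cell 3' v3 libraries, aligned to mm10 with Cell Ranger 6.1.2 per the processing notes (6.0.1 in the file headers). Cells were filtered as in the study (1000 to 6000 genes, under 7.5% mitochondrial UMIs). No doublet caller was run, and of possible doublets the members' rule removes only cells with a UMI of Cd8a, Cd8b1, Foxp3, Ncr1 or Siglech or over 1 of Lyz2. Counts were summed per library and class (34781 deposited cells, 32285 genes) and tested with edgeR 4.0.16 in R 4.3.3 (TMM factors, filterByExpr, quasi-likelihood, library as block, adjusted p under 0.05), with the 8 genes of the rule left out. A planned division of the members is not reported here. The standard error is the log2 fold change divided by the square root of the F statistic. Color ratios add 0.5 to each count. DESeq2 1.42.0, thinning to 3000 UMIs (seed 1, Python 3.11.15, scipy 1.17.1) and leaving out libraries or cells were alternatives. Calls were tested on simulated data, where 68% of 2-fold and 91% of 4-fold changes were recovered for the CD8 comparison. All matrix columns mapped to a sample. Gene positions are from GENCODE M21, matched for 99.6% of genes. Named genes were Cd40lg and Tnfsf8, the helper lists in full, up to 4 called and 3 uncalled genes of each of 33 lists, and the 12 largest called differences each way of at least 20 CPM, without gene models and receptor segments. Further genes were named after their values were seen. Members, lists and tests were chosen with earlier results of these data known.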

Additional observations from a re-analysis of the deposited data

Results flagged for a closer look

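Csf2rb, the shared beta chain of the IL-3, IL-5 and GM-CSF receptors, differed between members and CD8 T cells by 4.69 on the log2 scale in KR+, upward, and was lower in members of both KG+ libraries, at -2.06 and -1.23. It was picked out because the libraries of 1 color moved one way and the KR+ library the opposite way, and the difference between colors was not tested. Members held 1, 4 and 8 UMIs of Csf2rb in KG+ 1, KG+ 2 and KR+, and 6 of the 8 in KR+ were in 1 cell. CD8 T cells held 66, 184 and 17 UMIs. The edgeR comparison over the 3 libraries did not call it, at -0.06 and an adjusted p of 0.98.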

How the results depend on the processing

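For members against CD8 T cells, the counts higher and lower were 817 and 850 without the library block, 881 and 879 after thinning to 3000 UMIs, 979 and 938 without cells bearing UMIs of other cell types or above the 95th percentile of UMIs, and 988 lower without cycling cells. Leaving out 1 library gave 855 to 1439 higher (855 without KG+ 1) and 818 to 1434 lower (818 without KG+ 1). Against Foxp3+ cells the counts were 558 and 502 with DESeq2, 649 and 569 after thinning, 754 lower without the block, 787 lower without other-type cells and 767 lower without cycling cells, and leaving out 1 library gave 573 to 1573 higher (573 without KG+ 2) and 525 to 1552 lower. Between colors they were 310 and 216 at 1.5-fold, 37 and 12 at 50 CPM or more, 144 and 122 after thinning, and 140 and 138 without Ikzf2 and Il2ra members, a choice made after seeing the data, as was leaving out each gene's highest cell. Leaving out 1 KG+ library gave 165 to 193 higher and 88 to 98 lower. The causes were not tested. The members' share was 1.77%, 1.33% and 0.865% with 2 Cd4 UMIs required, 4.24%, 2.83% and 1.76% with 1 Cd3e UMI allowed, 1.83%, 1.67% and 1.16% after thinning, 7.27%, 4.48% and 2.62% of Cd3e-positive cells, and 2.02%, 1.13% and 0.644% with no Ikzf2 or Il2ra UMI. Of the 111 genes followed one by one against CD8 T cells, 30 lost significance under at least 1 alternative (58 of 1422 values, 17 of them without the library block), and of 115 against Foxp3+ cells 29 did (91 of 1329 values, 22 with DESeq2, 17 without the block and 15 without KG+ 2). Between colors 37 of 196 values, in 17 of 24 genes, moved by more than the difference between the KG+ libraries, 14 of them without Ikzf2 and Il2ra members and 10 after thinning. Sign changes were Cd163l1 at -0.91 (without other-type cells) and -0.90, Areg at -1.16 and Blk at -0.06 against CD8 T cells among members without Ikzf2 and Il2ra UMIs. No paired analysis was possible because the labels number only the KG+ libraries and KR+ has 1 library, and the library block is part of each test. Depth is lowest for the 168 KR+ members, where 1 UMI is about 0.898 CPM.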
